A study of Mus musculus with 16 samples.

Results

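The liver transcriptomes compared here are those of Klrk1-/- and wild-type (WT) mice kept on normal chow diet (NCD), the arm of the study that did not receive its fatty liver diet. They are 8 of the 16 libraries of the series, 4 from WT mice and 4 from Klrk1-/- mice, taken by the genotype and diet in their labels, with 1 library per mouse. All were males, 8 to 12 weeks old when feeding began, that had NCD ad libitum for 3 weeks. The WT mice are labelled as strain C57BL6J and are numbered 1, 2, 3 and 5, and the mice numbered 1 to 4 of the strain labelled NKG2D are the Klrk1-/- mice. Which part of the gene was deleted is not given in the sources used here. Both lines were kept as breeding colonies, and the sources used here do not say whether the mice were littermates, so that genotype cannot be told apart from anything else the 2 colonies differ in. The other 8 mice of the series, 5 WT and 3 Klrk1-/-, received a steatosis-steatohepatitis diet (SSD) rich in fat, fructose and cholesterol for 3 weeks. They share no library with the NCD mice and serve below as a second look at the same genes.

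Klrk1 encodes NKG2D, an activating receptor on NK cells, γδ T cells and CD8 T cells that binds stress-induced ligands of the RAE-1, H60 and MULT1 families and signals through the adaptors DAP10 and DAP12. Whole liver RNA is dominated by hepatocytes, which make plasma proteins, glucose and bile acids, follow a circadian and feeding rhythm, and fold secreted proteins with the help of chaperones in the endoplasmic reticulum. Immune cells that carry NKG2D are a small part of this RNA.

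Each library held between 19892025 and 24831536 reads on genes in WT mice and between 20842235 and 22428933 in Klrk1-/- mice. The values below are normalized counts, the authors' read counts per gene divided by 1 factor per mouse. A gene was tested when its mean normalized count over the 8 mice was at least 10, and it was called when limma's adjusted p was under 0.05 and the level differed by more than 2-fold. Fold changes are log2 of Klrk1-/- over WT on the scale of log2(normalized count + 1), so that changes at low levels come out too small. The first principal component over the 12845 genes tested took 42.5% of the variance and separated the genotypes, with WT mice between 12.5 and 32.2 and Klrk1-/- mice between -38.5 and -13.7. Mitochondrial transcripts took 7.77 to 11.6% of the reads in WT mice and 11.9 to 16.8% in Klrk1-/- mice, and the 10 most abundant genes took 20.8 to 23.6% and 24.1 to 29.1%, so that neither measure overlapped between genotypes. Their part in the results below was not tested.

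The target gene was checked first. Klrk1 (ENSMUSG00000030149, chr6:129587286-129600827 on GRCm39) had 22.9, 20.1, 28.7 and 20.97 normalized counts in the 4 WT mice and 2.30, 4.98, 8.71 and 1.23 in the 4 Klrk1-/- mice. All Klrk1-/- mice lay below all WT mice, and the fold change was -2.40 ± 0.46 (SE) with an adjusted p of 0.00724 (exact two-sided permutation p = 0.0286, the smallest that 4 against 4 mice can give). A few reads remained in the Klrk1-/- mice, 14 in all against 80 in the WT mice. The adaptor gene Tyrobp, which encodes DAP12, differed by 0.24 (adjusted p = 0.192), and Hcst, which encodes DAP10, by -0.25 (adjusted p = 0.736). The ligand genes Raet1e, Raet1d and Ulbp1 differed by 0.76, 0.48 and 0.44, and none passed (adjusted p between 0.168 and 0.54). In whole liver, fewer cells of a type and less RNA per cell cannot be told apart. The Y-linked genes Ddx3y, Uty, Eif2s3y and Kdm5d were detected in all 8 mice, as the male labels require, with only Kdm5d past the test at 0.53 (adjusted p = 0.0461), a call that was lost in 10 alternatives, 6 of them with 1 mouse left out.

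How far did the livers of the 2 genotypes differ on chow? Of the 12845 genes tested, 109 (0.849%) were called higher in Klrk1-/- mice and 110 (0.856%) were called lower, 219 (1.7%) in all. Without the 2-fold limit 823 genes (6.41%) were higher and 856 (6.66%) lower. The median fold change of all genes was 0.00, and 6457 genes (50.3%) had a fold change above 0. The values of the genotypes did not overlap for 1226 genes higher (9.54%) and 1257 genes lower (9.79%) in Klrk1-/- mice, 2483 in all (19.3%), among them 190 of the 219 called genes. The mouse that weighed most on these counts was Klrk1-/- mouse 3, without which 63 genes were called higher and 69 lower. Without WT mouse 1, 68 genes were called higher and 103 lower. The plot of fold change against mean level shows that called genes spanned the whole range of expression.

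Among genes that rose, the transcription factor gene Zbtb16, known for its induction by glucocorticoids and its role in innate-like lymphocytes, stood out by its separation. It had 113, 141, 111 and 140.1 normalized counts in WT mice and 1313, 805, 1402 and 811 in Klrk1-/- mice, a change of 3.05 ± 0.18 (SE) (adjusted p = 1.68e-06). Arrdc3, an arrestin-domain gene linked to insulin action, had 470.3, 647, 444 and 406 in WT mice and 2561, 4402, 4854 and 3194 in Klrk1-/- mice, a change of 2.91 (adjusted p = 3.53e-06). For both genes the lowest Klrk1-/- mouse was several times above the highest WT mouse. Nr0b2, which encodes the bile acid-induced repressor SHP, rose from 668, 619, 515 and 802 to 3059, 2128, 2355 and 2518 (fold change 1.95, adjusted p = 7.64e-06). Hes1, a transcriptional repressor in the Notch pathway, had 65.1, 76.5, 49.5 and 86.1 in WT and 171, 248, 412 and 242 in Klrk1-/- mice (1.89, adjusted p = 0.000694), again without overlap.

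Several of the largest rises concerned genes near silence in WT liver. The predicted pseudogene Gm9008 had 4.82, 2.01, 0 and 0 normalized counts in WT mice and 102, 88.3, 97.0 and 40.6 in Klrk1-/- mice, and its change of 5.26 ± 0.56 (SE) was the largest of all genes tested. Dab1, an adaptor of the reelin receptors, had 2.41, 3.02, 1.30 and 5.52 and 62.0, 41.1, 72.1 and 48.0 (3.87, adjusted p = 8.54e-05). The mice of the genotypes were far apart for both genes, although the WT values rest on a handful of reads. Cyp2a4, a steroid hydroxylase with higher expression in female liver, had 1.21, 2.01, 2.61 and 5.52 in WT mice and 28.7, 7.47, 28.6 and 35.7 in Klrk1-/- mice (2.69), and reads may be shared with its near-identical neighbour Cyp2a5. Obp2a, a lipocalin gene, had 37.4, 12.1, 11.7 and 62.9 and 147, 254, 153 and 181 (2.83, adjusted p = 0.00219). The predicted genes Gm20075 (3.55), Gm43637 (2.20), Gm49410 (2.06) and Gm43162 (1.90) also rose, of which Gm43637 did not pass without WT mouse 1 or 2. Of these, Gm20075 lies within Sv2c, Gm43637 within Taok3 and Gm43162 within Rap1gds1 on the same strand, so that their reads cannot be separated with certainty.

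The fall with the smallest adjusted p was that of Paox, which encodes the peroxisomal polyamine oxidase (chr7:139695712-139717137). It had 773, 834, 815 and 771 normalized counts in WT mice and 89.6, 89.6, 85.8 and 71.3 in Klrk1-/- mice, a change of -3.24 ± 0.11 (SE) (adjusted p = 2.82e-09). The mice of each genotype were nearly equal and the genotypes lay far apart. Paox overlaps Echs1 on the opposite strand, and whether the counting used strand is not given in the sources used here. Slc25a25, a mitochondrial ATP-Mg/phosphate carrier, fell from 7612, 7400.2, 8818 and 6219 to 1560.1, 829, 443 and 538 (-3.32, adjusted p = 5.28e-05). Nnmt, the nicotinamide N-methyltransferase, had 3994, 2556, 3552 and 3732 in WT mice and 1535, 226, 92.0 and 1464 in Klrk1-/- mice (-2.87, adjusted p = 0.0206). The Klrk1-/- mice split here, with mice 2 and 3 far below mice 1 and 4, and all below the WT mice, and Nnmt did not pass with DESeq2 or without WT mouse 1 or Klrk1-/- mouse 2. The stress-response gene Gadd45g had 3900.1, 745, 2471 and 5545 and 177, 689, 196 and 533 (-2.90), and Moxd1, a monooxygenase-like gene with the largest fall among called genes, had 144, 106, 1916 and 539 and 50.5, 16.2, 1.24 and 14.8 (-4.74, adjusted p = 0.0077), with a wide spread among WT mice for both. The receptor gene Mrgpre fell from 20.5, 27.2, 26.1 and 19.9 to 3.45, 2.49, 1.24 and 3.69 (-2.76), and the G protein subunit gene Gnal from 24.1, 16.1, 28.7 and 34.2 to 5.74, 2.49, 1.24 and 3.69 (-2.71). Both are low-level transcripts whose genotypes did not overlap.

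**Figure D1:**
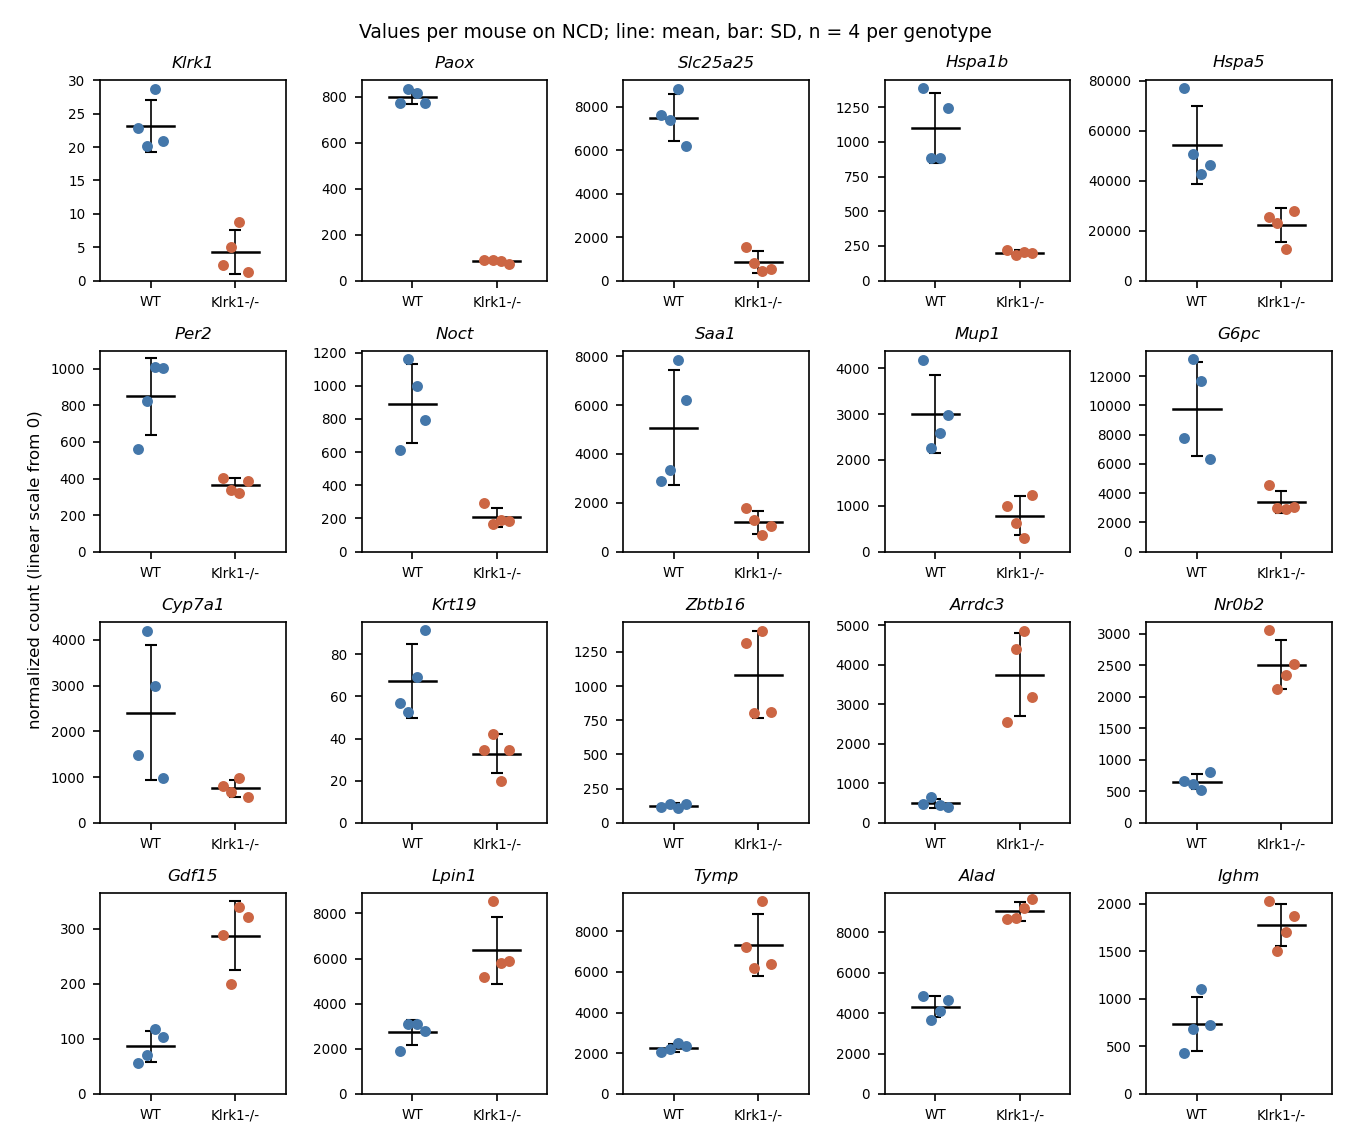
Normalized counts (y axes, linear from 0) of 20 genes in each of the 4 WT mice (blue) and 4 Klrk1-/- mice (orange) on NCD, with the mean as a line and the SD as a bar. The ranges of the genotypes do not overlap for any of the 20 genes, Cyp7a1 comes close to it, and the spread within a genotype is narrow for Paox and wide for Cyp7a1 and Saa1.

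Heat shock chaperones, which hold and refold proteins, were lower in Klrk1-/- mice. Of 24 members tested, where 6.66% of all genes were lower and 6.41% higher, 17 were lower in Klrk1-/- mice and 1 was higher, with a median fold change of -0.73 against 0.00 over all genes. The inducible Hspa1b had 1387, 885, 885 and 1245 normalized counts in WT mice and 221, 184, 205 and 197 in Klrk1-/- mice (-2.42 ± 0.15 (SE), adjusted p = 1.68e-06). Its near-identical copy Hspa1a, with which it can share reads, had 73.6, 47.3, 69.1 and 83.9 and 10.3, 19.9, 17.4 and 17.2 (-2.02). All Klrk1-/- mice were below all WT mice for both. The constitutive Hspa8, among the most abundant chaperone mRNAs here, fell from 47699, 38184, 39475 and 41496 to 19892, 19317, 17578 and 22554 (-1.07, adjusted p = 0.000159). The nucleotide exchange factors Hsph1 (-1.34) and Bag3 (-0.99), the HSP90 gene Hsp90aa1 (-1.31) and the HSP110-type Hspa4l (-1.04) fell as well, with adjusted p between 0.000292 and 0.000924. The exception was the cold-inducible RNA-binding protein gene Cirbp, which rose from 226, 255, 288 and 277 to 487, 643, 603 and 469.9 (1.07, adjusted p = 0.000455). The mitochondrial chaperones Hspd1 and Hspe1 differed by -0.28 and -0.09 and did not pass (adjusted p = 0.106 and 0.651). Without 1 mouse at a time the number of lower members ranged from 16 to 19.

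Chaperones of the endoplasmic reticulum are induced by the unfolded protein response, and Hspa5 and Dnajb9 stand in both lists. Of 30 members of the unfolded protein and ATF4 response tested, 11 were lower and 2 higher, with a median of -0.36, where 6.66% of all genes were lower and 6.41% higher. Hspa5, which encodes the chaperone BiP, had 77003, 50519, 42581 and 46219.7 normalized counts in WT mice and 25335, 22890.3, 12618 and 27974 in Klrk1-/- mice (-1.31 ± 0.23 (SE), adjusted p = 0.00486). The highest WT mouse was mouse 1 and the lowest Klrk1-/- mouse was mouse 3, and the genotypes did not overlap. Creld2 (-1.58), Hyou1 (-1.18), Pdia4 (-1.08) and Dnajb9 (-1.20) also fell by more than 2-fold, of which Dnajb9 did not pass without WT mouse 1 or 2. Of 2 further genes of protein degradation at the endoplasmic reticulum, named for the promoter motif below, Derl3 had 1196, 292, 344 and 726 in WT and 152, 128, 56.0 and 193 in Klrk1-/- mice (-2.16), and Syvn1, an E3 ubiquitin ligase, had 15783, 12359, 10829 and 15763 and 8019, 6739, 4421 and 7506 (-1.05). The 2 members that rose are known from the ATF4 arm, the hepatokine gene Gdf15, with 56.7, 70.5, 117 and 103 in WT and 289.5, 200.3, 339.5 and 322 in Klrk1-/- mice (1.75, adjusted p = 0.000773), and the pseudokinase gene Trib3 (0.93). Atf4 itself differed by 0.08 and Xbp1 by -0.43, and neither passed (adjusted p = 0.624 and 0.0651). The count of lower members fell to 6 without WT mouse 1.

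The ER stress element, which reads CCAAT, any 9 bases and CCACG, is a motif of this response. It was searched on both strands of RefSeq promoters (250 bases before to 50 after the start, table build GRCm38.p6), after the fall of the chaperones had been seen. It was found in 20 of 12763 promoters of genes tested (0.157%), in 4 of 95 promoters of genes called lower and in 0 of 90 promoters of genes called higher. Symbols matched for 72 of the 110 lower and 70 of the 109 higher genes. In the unfolded protein list it was found for Hspa5, Creld2, Dnajc3, Hsp90b1, Pdia6 and Calr, of which all but Calr were lower (-0.29 for Calr, adjusted p = 0.142). The promoter of Hspa5 and the stretches around the motif in Creld2, Derl3, Syvn1, Dnajc3 and Pdia6 are shown because these genes were lower, Pdia6 not without WT mouse 1 or 2 or Klrk1-/- mouse 2. They were placed on GRCm39 by exact match at chr2:34661852-34662101 (plus strand), chr15:88703703-88703761 (plus strand), chr10:75729056-75729114 (plus strand), chr19:6096542-6096600 (plus strand), chr14:119175219-119175277 (plus strand) and chr12:17316472-17316530 (plus strand). Capitals mark the motif, which reads on the opposite strand in Creld2 and Derl3.
Hspa5: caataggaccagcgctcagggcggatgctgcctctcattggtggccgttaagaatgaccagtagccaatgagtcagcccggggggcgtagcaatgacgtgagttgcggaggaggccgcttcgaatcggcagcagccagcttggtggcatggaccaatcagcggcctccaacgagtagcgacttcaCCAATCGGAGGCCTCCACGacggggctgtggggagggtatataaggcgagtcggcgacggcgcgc
Creld2: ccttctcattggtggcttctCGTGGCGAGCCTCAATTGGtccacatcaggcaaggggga
Derl3: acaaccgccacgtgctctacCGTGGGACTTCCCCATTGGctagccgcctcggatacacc
Syvn1: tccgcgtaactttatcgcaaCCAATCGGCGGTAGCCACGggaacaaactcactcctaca
Dnajc3: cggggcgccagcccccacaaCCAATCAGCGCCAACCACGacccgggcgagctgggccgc
Pdia6: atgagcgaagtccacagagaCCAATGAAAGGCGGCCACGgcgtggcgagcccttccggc

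A heat shock element of 3 units, which reads GAA, TTC and GAA with any 2 bases after each of the first and second, was present in 60 of the 12763 promoters (0.470%), in 0 of 90 of genes called higher and in 2 of 95 of genes called lower, which are 2 annotated starts of Hsph1 over the same site. Among heat shock chaperones it was found for Hsph1 (-1.34) and Chordc1 (-0.73), which fell, and in the shared promoter of Hspd1 and Hspe1, which did not pass the test.

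Clock genes moved in both directions. The circadian clock runs on the activators ARNTL and CLOCK or NPAS2, which drive the repressors of the PER and CRY families and the nuclear receptors NR1D1 and NR1D2. Of 19 core clock genes tested, 4 were lower (Per2, Per3, Hlf and Bhlhe40) and 2 were higher (Nr1d1 and Npas2), with a median of -0.32, where 6.66% of all genes were lower and 6.41% higher. Per2 had 559.6, 825, 1009 and 1003 normalized counts in WT mice and 406, 338, 323 and 387 in Klrk1-/- mice (-1.19 ± 0.17 (SE), adjusted p = 0.00117), without overlap. Per3 had 91.7, 178, 139 and 222 and 46.0, 101, 57.2 and 49.2 (-1.30, adjusted p = 0.0124), where Klrk1-/- mouse 2 lay above WT mouse 1. Nr1d1 had 894, 1128, 778 and 1346 in WT mice and 1281, 2918, 3573 and 2329.7 in Klrk1-/- mice (1.22, adjusted p = 0.0113), with Klrk1-/- mouse 1 inside the WT range. Npas2 changed by 0.64, the output factor gene Hlf by -0.49 and the repressor gene Bhlhe40 by -0.33. Bhlhe40 did not pass without WT mouse 1 or 2 or Klrk1-/- mouse 2, 3 or 4. Hlf did not pass in limma's model of all 16 mice (adjusted p = 0.083), nor Nr1d1 with no variance trend or with limma's robust variances. Arntl (0.20), Cry1 (-0.41), Per1 (-0.63) and Dbp (-0.71) did not pass (adjusted p between 0.0982 and 0.311).

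Of 22 rhythmic liver output genes tested, 5 were lower and 3 higher, beside 6.66% and 6.41% of all genes. Noct, which encodes the rhythmic phosphatase nocturnin, had 614, 1159, 999.8 and 797 normalized counts in WT mice and 293, 168, 189 and 182 in Klrk1-/- mice (-2.09 ± 0.20 (SE), adjusted p = 9.2e-05). Alas1, the first enzyme of heme synthesis, had 11669, 7469, 7706 and 12012 and 1775, 6197, 2063 and 4969 (-1.54), and the deubiquitinase gene Usp2 changed by -1.08. The highest Klrk1-/- mouse stayed below the lowest WT mouse for these 3 genes. Lpin1, a phosphatidate phosphatase and coactivator, rose from 1913, 3103, 3079 and 2802 to 5198, 8557, 5796 and 5878 (1.22, adjusted p = 0.00117). The hour of collection and any fast before it are not given in the sources used here.

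The D-box, TTATGTAA, through which HLF and related factors act, was found on either strand in 73 of 12763 promoters of genes tested (0.572%), in 1 of 95 of genes called lower and in 0 of 90 of genes called higher. The 1 match among genes called lower was Per3, whose 250 bases upstream of the start, at chr4:151129123-151129372 (minus strand) on GRCm39, hold it 2 times, in capitals. The E-box, CACGTG, was found in 9.73% of promoters of genes tested, in 13 of 95 (13.7%) of genes called lower and in 10 of 90 (11.1%) of genes called higher. The nuclear receptor half-site, AGGTCA, was found in 12.9%, 20% and 16.7% in the same order. These shares are descriptions, and a match is not a bound site.
Per3: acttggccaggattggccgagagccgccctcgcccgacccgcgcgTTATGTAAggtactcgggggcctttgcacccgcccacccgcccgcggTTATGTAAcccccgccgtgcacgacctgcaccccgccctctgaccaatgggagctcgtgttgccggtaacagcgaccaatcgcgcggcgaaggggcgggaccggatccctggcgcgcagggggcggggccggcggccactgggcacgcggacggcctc

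Genes that respond to glucocorticoids and to feeding moved in both directions. Of 22 glucocorticoid-responsive genes tested, 4 rose and 5 fell (median -0.22), where 6.66% of all genes were lower and 6.41% higher. Besides Zbtb16, the rises were Fkbp5, a chaperone partner of the receptor (347 ± 76.6 in WT and 713 ± 109.5 in Klrk1-/- mice, mean ± SD, n = 4 each, 1.05), Cdkn1a, which encodes the cell cycle inhibitor p21 (364 ± 111 and 882 ± 309, 1.26), and Arrdc2 (1.17). The kinase gene Sgk1 fell from 561, 555, 723 and 309 to 299, 175, 184 and 162 (-1.36, adjusted p = 0.00418). The list therefore did not move as 1 block. Of 20 immediate early genes, 3 rose, namely Klf10 (1.56), Egr1 (1.62) and Ier2 (0.75), and 2 fell, namely Gadd45g and Myc (-1.80), the latter count being near the share over all genes. Egr1 did not pass without WT mouse 2. Myc varied widely, with 555, 107, 228 and 1019 in WT mice and 77.0, 108, 79.6 and 138 in Klrk1-/- mice, the genotypes overlapped, and it did not pass without WT mouse 1 or 5 or Klrk1-/- mouse 1, 2 or 3.

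Of 23 genes of gluconeogenesis and the insulin response, 8 fell and 2 rose (median -0.24), where 6.66% of all genes were lower and 6.41% higher, so that the rises were near the share over all genes. G6pc, which encodes the glucose-6-phosphatase that releases glucose, had 7779.7, 13188, 11668 and 6342 normalized counts in WT mice and 4532, 2979, 2937 and 3082 in Klrk1-/- mice (-1.49 ± 0.21 (SE), adjusted p = 0.00122). Igfbp1, a secreted binding protein of insulin-like growth factors that insulin suppresses, fell from 2372, 2362, 3517 and 1692 to 1109.8, 909.6, 877 and 1053 (-1.29, adjusted p = 0.000957). The genotypes were separate for both. The insulin receptor substrates Irs2 (-0.83) and Irs1 (-0.80), the kinase subunit gene Pik3r1 (-0.60) and the fructose-bisphosphatase gene Fbp1 (-0.69) fell by less than 2-fold. Ppargc1a, the coactivator PGC-1α, rose from 94.1, 116, 155 and 146 to 278, 246, 399 and 319 (1.28, adjusted p = 0.00121), opposite to G6pc. Irs1 did not pass without WT mouse 1 or 2, and Fbp1 did not without WT mouse 1 or 2 or Klrk1-/- mouse 2 or 3. The count of lower members fell to 4 without WT mouse 1 and to 5 without WT mouse 2 or Klrk1-/- mouse 2 or 3.

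Plasma proteins of the acute phase, which hepatocytes secrete in response to cytokines, moved mainly down among those that passed. Of 28 members tested, 9 fell and 1 rose (median -0.29), where 6.66% of all genes were lower and 6.41% higher. The number of lower members was 6 without WT mouse 1 or Klrk1-/- mouse 1 or 3. Saa1 had 2887, 3354, 7853 and 6215 normalized counts in WT mice and 1781, 1307, 664 and 1048 in Klrk1-/- mice (-2.05 ± 0.32 (SE), adjusted p = 0.00241), and its close paralog Saa2 had 923, 1051, 4666 and 2570.0 and 639.9, 421, 282 and 348 (-2.19). WT mice 3 and 5 were the highest for both genes, and no Klrk1-/- mouse reached the lowest WT mouse. The metalloreductase gene Steap4 changed by -1.43, and the protease inhibitor gene Serpina3n (-0.62), Lrg1 (-0.49) and Itih4 (-0.51) fell by less than 2-fold. Hamp2, a hepcidin paralog, rose (1.03). Of 41 complement and coagulation genes 7 were lower and 0 higher, among them C8b (-0.61), Cfb (-0.41) and the low-level C7 (8.44, 18.1, 20.9 and 19.9 against 5.74, 7.47, 2.49 and 2.46, -1.73), and 2 were lower without Klrk1-/- mouse 3, 3 without WT mouse 2 or 3 or Klrk1-/- mouse 2, and 4 without Klrk1-/- mouse 1. Cfb did not pass without WT mouse 2 or Klrk1-/- mouse 1, 2 or 3, and C7 did not without Klrk1-/- mouse 3 or 4. Of 15 genes of the IL-17 pathway and its targets, 2 were lower, the transcription factor gene Cebpd (-0.90) and the receptor adaptor gene Traf3ip2 (-0.43), and 1 was lower without WT mouse 1 or 3 or without any single Klrk1-/- mouse, and 3 without WT mouse 2. The list's median was -0.51, and 13 of the 15 fold changes were below 0. The chemokine genes Cxcl1 (-1.44, adjusted p = 0.217), Cxcl2 (-0.52) and Ccl2 (-0.57) did not pass. Of 29 chemokine genes 1 was higher and 1 lower, with 0 to 4 higher and 1 to 3 lower when 1 mouse was left out, and 3 of 46 interferon-stimulated genes were lower. The counts of chemokine and interferon-stimulated genes are near or below the shares over all genes (6.41% higher and 6.66% lower). Of 29 genes of antigen presentation, 0 passed in limma's test in either direction, with 0 to 1 lower when 1 mouse was left out.

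**Figure D2:**
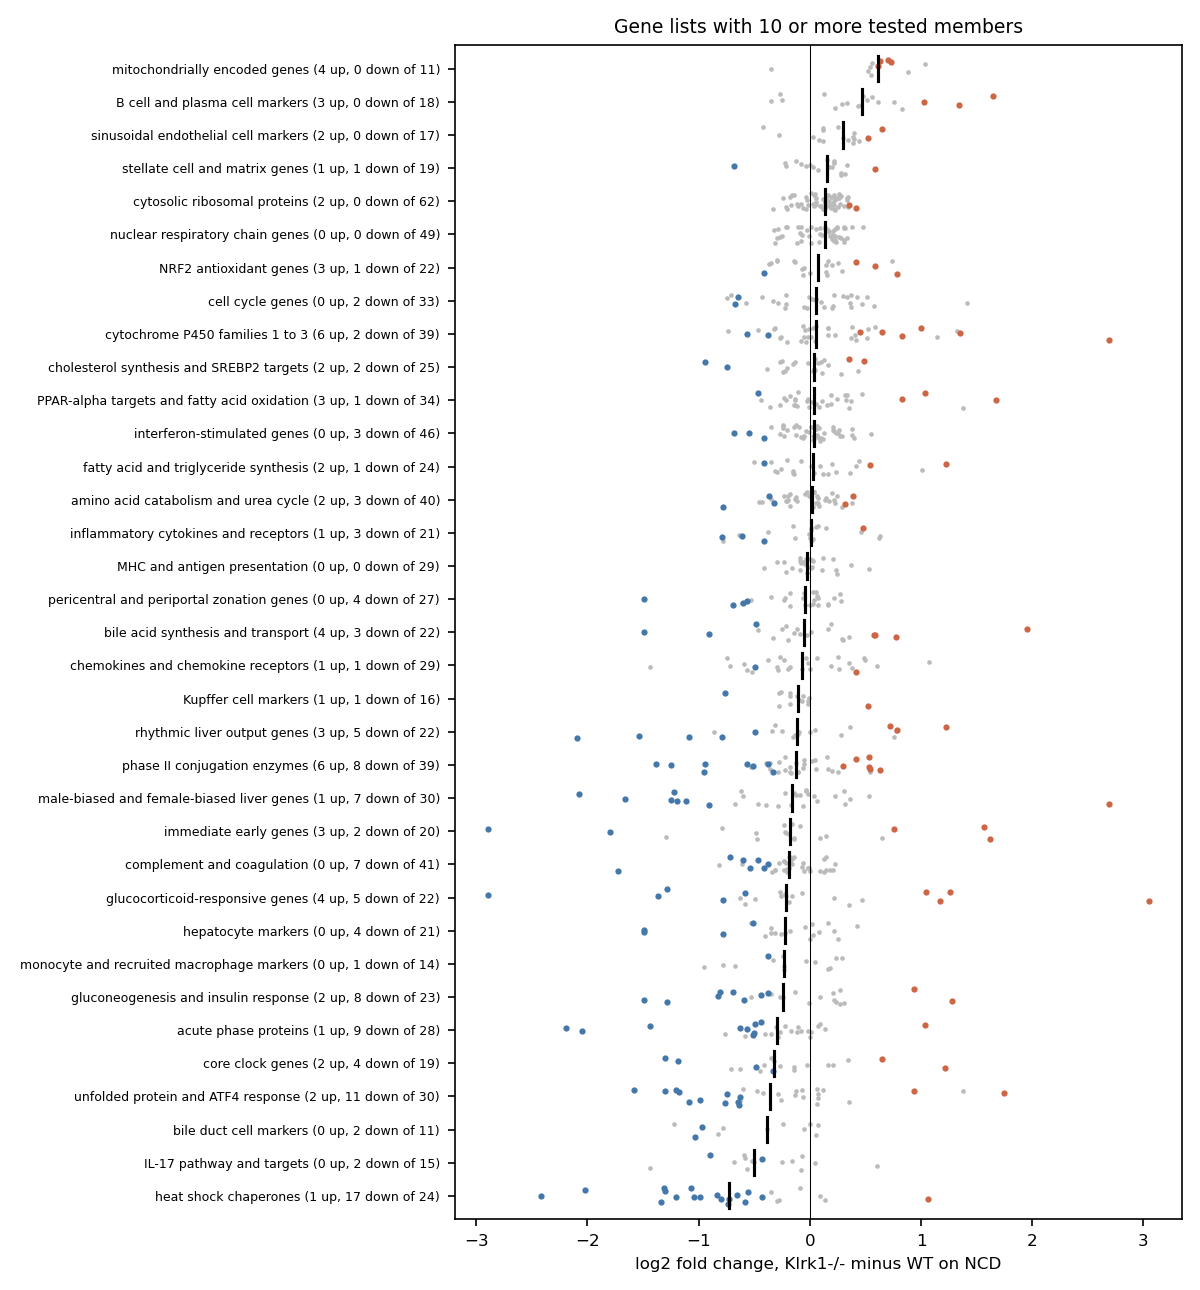
Log2 fold changes on NCD (x axis) of the tested members of each gene list other than the added Mup, zinc finger and immunoglobulin segment families with at least 10 tested members (rows, ordered by median), with members past an adjusted p of 0.05 in orange (higher) and blue (lower), other members in grey and the list's median as a bar. Heat shock chaperones have the lowest median of these lists (-0.73, 17 of 24 lower), and mitochondrially encoded genes the highest (0.61, 4 of 11 higher).

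Major urinary proteins are pheromone carriers that male liver secretes under the control of growth hormone pulses. In the list of male-biased and female-biased genes, 7 of 30 members were lower and 1, Cyp2a4, was higher, where 6.66% of all genes were lower and 6.41% higher. The list holds genes of both biases, so these counts do not give a direction of sex bias. Mup1 had 4179, 2254, 2577 and 2990.5 normalized counts in WT mice and 993, 629.6, 291 and 1239.9 in Klrk1-/- mice (-2.08 ± 0.35 (SE), adjusted p = 0.00328), and Mup9 had 4561, 1670.3, 3289 and 5201 and 1011, 893, 139 and 346 (-2.88). Klrk1-/- mice were lower than WT mice for both, with mouse 3 the lowest. The abundant Mup7 (118017 ± 21889 and 53287 ± 22407, -1.25), Mup11 (-1.22) and Mup17 (-1.66) followed. In a model of all 16 mice these 3 did not pass (adjusted p = 0.159, 0.283 and 0.207), nor did Mup11 without WT mouse 1 or Klrk1-/- mouse 3 or Mup17 without WT mouse 1 or 3. Over the whole Mup family, taken after its members were seen to fall, 13 of 21 genes were lower and 0 higher, with a median of -1.22. Mup12, which is among the 13, also did not pass in the model of all 16 mice (adjusted p = 0.155). The family lies in 1 cluster on chromosome 4 with near-identical members whose reads can be exchanged, so these are not 13 independent observations. The same holds for any Mup genes among the 7 lower members of the sex-biased list. Chromosome 4 had the highest share of called genes of the chromosomes, 11 higher and 18 lower of 798 (3.63%).

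Bile acid genes showed a pair of opposed changes. Nr0b2, described above, is known to repress Cyp7a1, the rate-limiting enzyme of bile acid synthesis. Whether the changes of these genes are linked was not tested. Cyp7a1 had 1479.7, 4200.5, 2982 and 978 normalized counts in WT mice and 796, 678, 971 and 556 in Klrk1-/- mice (-1.49 ± 0.35 (SE), adjusted p = 0.0185). The lowest WT mouse, mouse 5, was just above the highest Klrk1-/- mouse. Cyp7a1 did not pass with no variance trend or with limma's robust variances. Of the 22 members of the list, 3 fell (Cyp7a1, Cyp7b1 at -0.91 and Akr1d1 at -0.49) and 4 rose, among them Nr0b2 and the sterol exporter genes Abcg5 (0.77) and Abcg8 (0.59), which overlap on opposite strands. Over all genes 6.66% were lower and 6.41% higher. Akr1d1 did not pass without WT mouse 1, 2 or 3 or Klrk1-/- mouse 1, 2 or 3, and Cyp7b1 did not without WT mouse 1. The median was -0.05. Slc10a2, the apical bile acid transporter, fell from 1007, 854, 980.2 and 756 to 525, 402, 319.6 and 479.7 (-1.07, adjusted p = 0.00108). Without WT mouse 1 the number of lower members was 1, and without WT mouse 5 it was 6.

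Of 11 mitochondrially encoded genes tested, 4 were higher and 0 lower (median 0.61; all genes 6.41% higher and 6.66% lower), namely mt-Nd5 (0.73), mt-Cytb (0.71), mt-Nd4 (0.63) and mt-Nd1 (0.61), with adjusted p between 0.0204 and 0.0402. Of 49 nuclear entries of the respiratory chain, which carry at most 47 gene names, 0 passed in limma's test in either direction (median 0.13). With 1 mouse left out, 0 to 5 were higher and 0 to 5 lower. The difference between the groups of genes was not tested. The mitochondrial count was 0 without WT mouse 2 or Klrk1-/- mouse 3 and 1 without WT mouse 1 or 3 or Klrk1-/- mouse 1 or 4.

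Which cell types could these RNAs come from? The counts of markers that follow stand beside all genes, of which 6.66% were lower and 6.41% higher. Hepatocyte markers (Alb, Apoa1, Ttr, Cps1 and Hnf4a) summed to between 2140300 and 2433010 normalized counts in WT mice and between 2055440 and 2773110 in Klrk1-/- mice, as the liver label requires, and 0 of the 5 passed. In the longer list of 21 hepatocyte genes 4 were lower and 0 higher (median -0.23), namely G6pc, Tat, Cyp7a1 and Fga, and 2 were lower without Klrk1-/- mouse 3. A few B cell genes were higher. Igha, the IgA heavy chain, had 37.4, 41.3, 37.8 and 30.9 normalized counts in WT mice and 110.3, 118, 168 and 84.9 in Klrk1-/- mice (1.65 ± 0.20 (SE), adjusted p = 0.000633) and Ighm, the IgM heavy chain, had 428, 687, 1105 and 723 and 2030.0, 1507, 1699 and 1871 (1.34, adjusted p = 0.0026). All Klrk1-/- mice exceeded all WT mice for both genes. Of 18 B and plasma cell genes tested 3 were higher, these among them, and 0 lower (median 0.47), and Cd79a (0.34), Ms4a1 (0.48) and Jchain (0.23) did not pass. The count was 2 without WT mouse 1 or Klrk1-/- mouse 2, 3 or 4 and 5 without Klrk1-/- mouse 1. The 5 B cell markers summed to 480.0 to 1198 in WT mice and 1652 to 2113 in Klrk1-/- mice, and Ighm made up most of each sum.

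The 5 NK cell markers were all below the level for testing and summed to 13.3 to 22.2 normalized counts in WT mice and 23.6 to 28.3 in Klrk1-/- mice, a difference of a few reads. In the longer list of 22 NK cell genes 3 were tested and 0 passed in limma's test. Every member not tested had a higher mean in Klrk1-/- mice except Gzmb and Tbx21. Gzmb had means of 11.2 in WT and 7.25 in Klrk1-/- mice, and Tbx21 of 5.07 and 2.72. Klra8 had 0, 0, 0 and 1.10 in WT mice and 2.30, 6.22, 4.97 and 6.15 in Klrk1-/- mice. Klra2, which was tested and lies 1.62 Mb from Klrk1, differed by -0.48 (limma adjusted p = 0.285). How near Klrk1 the untested members lie was not examined, so their means cannot be read as a measure of NK cells. Of the 5 T cell markers 2 were tested and 0 passed (sum 39.3 to 56.3 and 44.3 to 77.1), and of 5 neutrophil markers 3 were tested and 0 passed (sum 76.5 to 184 and 81.6 to 151). Of 16 Kupffer cell genes tested 1 was lower and 1 higher, near the shares over all genes, and 15 of the 16 fold changes were below 0 (median -0.10). The scavenger receptor Marco was lower (98.9, 109.7, 134 and 126 against 80.4, 78.4, 83.3 and 40.6, -0.77) and Cd163 higher (0.53). Marco did not pass without any single WT mouse or without Klrk1-/- mouse 2 or 4, and Cd163 did not without WT mouse 1 or 3 or Klrk1-/- mouse 1 or 2. Of 14 monocyte and macrophage genes 1 was lower, and 0 without WT mouse 2 or 3 or Klrk1-/- mouse 1, 2 or 3. The endothelial scavenger receptors Stab1 (0.65) and Stab2 (0.52) were higher, 2 of 17 genes tested, with 0 higher without WT mouse 1 or 3 or Klrk1-/- mouse 2 or 3, 1 without Klrk1-/- mouse 1 and 7 without WT mouse 2. In the bile duct list Krt19, a keratin of cholangiocytes, fell from 56.7, 52.4, 69.1 and 91.6 to 34.5, 42.3, 19.9 and 34.4 (-1.03, adjusted p = 0.0214) and Cd24a changed by -0.97, 2 of 11 genes tested. Cd24a did not pass without WT mouse 2, 3 or 5 or Klrk1-/- mouse 1, 2 or 3. Without Klrk1-/- mouse 3, 0 of the 11 passed, and without WT mouse 1 there were 4.

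Genes next to a targeted locus travel with it when a line is bred, so the surroundings of Klrk1 on chromosome 6 were examined. Within 20 Mb, 230 other genes were tested, of which 3 were called higher and 1 lower (1.74%, against 1.7% over all genes). Genes below the level for testing are not in these counts. Within 1 Mb, 1 of 9 was called, the predicted gene Gm44243, which overlaps Gabarapl1 on the same strand and had 41.0, 60.4, 61.3 and 53.0 normalized counts in WT and 106, 87.1, 153 and 112 in Klrk1-/- mice (1.06, adjusted p = 0.00554). The zinc finger gene Zfp9 fell from 157, 219, 177 and 146 to 107, 68.4, 60.9 and 108 (-1.04), and the RNA-binding protein gene Caprin2 (1.07) and Gm6614 (1.22) rose. Caprin2 did not pass without WT mouse 1 or 2 or Klrk1-/- mouse 2 or 3, and Gm6614 did not without WT mouse 2 or 3 or Klrk1-/- mouse 2, 3 or 4. Of 5 tested genes known to differ between C57BL/6 substrains, 1 passed, which is near the 13.1% of all genes that passed in either direction. It was Wdfy1, a gene of endosomal signalling, which rose from 211, 259.8, 297 and 433 to 649, 737, 677 and 491 (1.12, adjusted p = 0.00362).

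**Figure D3:**
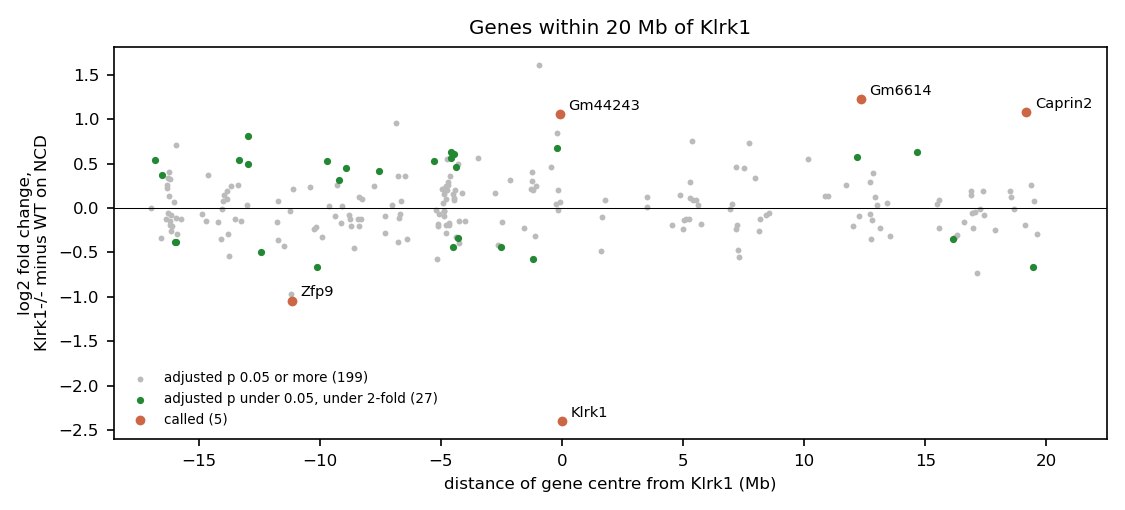
Log2 fold change of Klrk1-/- over WT on NCD (y axis) against the distance of each gene's centre from Klrk1 (x axis, Mb) for the genes tested within 20 Mb, with called genes in orange and other genes past an adjusted p of 0.05 in green. Klrk1 at -2.40 is the lowest point, and the 4 other called genes lie between -1.04 and 1.22.

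Did the chow-fed differences recur in mice that share no library with them? Of the 219 genes called on NCD, 208 were tested on SSD (3 Klrk1-/- against 5 WT mice) and 179 (86.1%) had the same sign there. Among those, 47 also passed an adjusted p of 0.05, against 381 of all 13116 genes tested on SSD (2.9%), and 0 passed with the opposite sign. Of genes called lower, 102 of 104 kept their sign and 31 passed, and their median went from -1.30 on NCD to -0.76 on SSD. Of genes called higher, 77 of 104 kept their sign and 16 passed, and their median went from 1.23 to 0.40. On both diets 28 genes were called the same way, 8 of them higher and 20 lower, against 24 (0.183%) and 127 (0.968%) of all genes on SSD.

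The genes that recurred were of several kinds. Dab1 (3.87 on NCD and 3.57 on SSD), Gm9008 (5.26 and 4.55), Gm20075 (3.55 and 5.20) and the glycerophosphodiesterase gene Gdpd3 (3.13 and 3.69) were low in WT mice on both diets. Gdpd3 varied among Klrk1-/- mice on NCD, with 326, 48.5, 16.2 and 522 against 8.44, 13.1, 7.82 and 19.9 in WT mice, so that Klrk1-/- mouse 3 lay inside the WT range. On NCD Gdpd3 did not pass without WT mouse 1, 2 or 3 or Klrk1-/- mouse 1 or 4. The thymidine phosphorylase gene Tymp rose from 2047, 2191, 2494 and 2354 to 7243, 6214, 9496 and 6381 on NCD (1.67, and 1.47 on SSD, adjusted p = 1.39e-05 and 0.000336), and Sco2, which overlaps it on the same strand, changed by 1.5 and 1.31. Alad, the second enzyme of heme synthesis, rose from 4831, 3663, 4126 and 4632 to 8653, 8696, 9189 and 9632 (1.07 on NCD and 1.24 on SSD), opposite to Alas1. Hyi, a hydroxypyruvate isomerase homolog, rose as well (1.24 and 0.85). Tdg, a DNA glycosylase gene, fell from 74.8, 79.5, 89.9 and 69.5 to 21.8, 22.4, 19.9 and 24.6 (-1.77 and -1.82). Noct (-2.17 on SSD), Per2 (-0.80), Saa1 (-2.12), Hspa5 (-0.81), Hsp90aa1 (-0.85), Cyp7a1 (-1.42), the calcineurin regulator gene Rcan1 (-1.07) and the collagen gene Col15a1 (-1.56) fell on both diets. For the lists, 221 of all genes tested on SSD were lower (1.68%), against 9 of 24 heat shock chaperones, 5 of 30 unfolded protein genes, 6 of 28 acute phase genes and 5 of 22 glucocorticoid-responsive genes. Some lists with lower members on NCD had few on SSD, among them 1 of 23 genes of gluconeogenesis, 1 of 41 of complement and coagulation, 1 of 21 of hepatocytes, 1 of 22 of bile acids and 0 of 30 sex-biased genes. Of 33 cell cycle genes, 2 were lower on NCD (median 0.05) and 9 on SSD. The Mup family kept a median of -1.33 on SSD with 3 of 18 genes above 0, but 1 passed the test there.

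**Figure D4:**
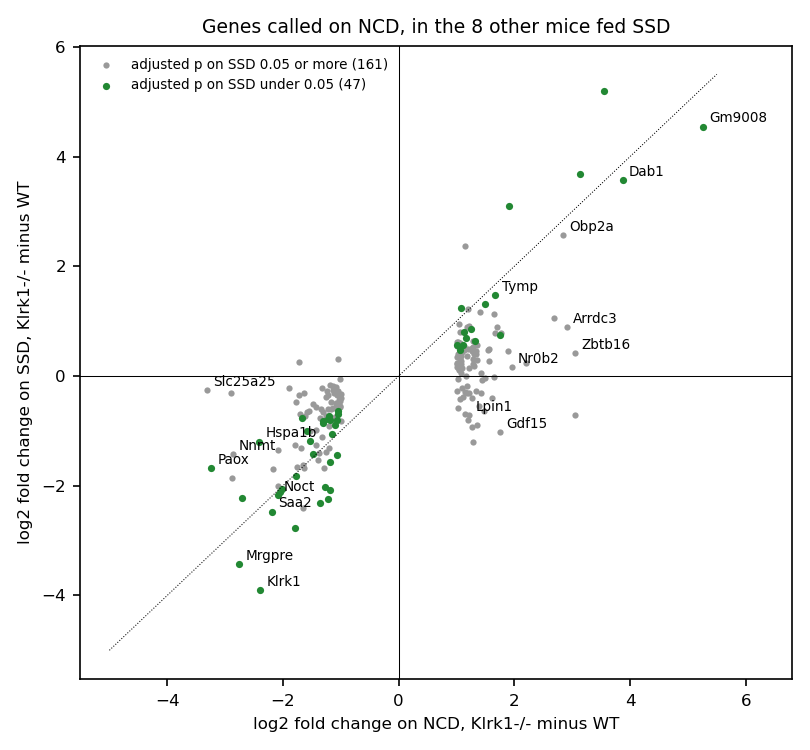
Log2 fold change of Klrk1-/- over WT on SSD (y axis) against that on NCD (x axis) for the 208 genes called on NCD and tested on SSD, with the 47 genes past an adjusted p of 0.05 on SSD in green and equality dotted. The lower left quadrant holds 102 of the 104 genes called lower, whereas 77 of the 104 genes called higher lie above 0 on SSD and Zbtb16, Arrdc3 and Nr0b2 lie far under the dotted line.

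Whether a genotype difference was itself unequal between the diets was tested with the diet by genotype interaction over all 16 mice, given here as the change on SSD minus that on NCD. Of 13068 genes 115 (0.88%) passed, of which 13 (0.0995%) were higher and 57 (0.436%) lower by more than 2-fold, and 23 of the 219 genes called on NCD were among them, 19 of those called higher and 4 of those called lower. Since these 219 genes were chosen for their NCD values, which the interaction subtracts, a smaller difference on SSD follows in part from the choice, and the same holds for the medians above. Zbtb16 was 523 ± 77.2 in WT and 722 ± 230.0 in Klrk1-/- mice on SSD (mean ± SD, n = 5 and 3), so that its difference shrank from 3.05 to 0.42 (interaction -2.63, adjusted p = 0.000338). Slc25a25 went from -3.32 to -0.26 (interaction 3.06, adjusted p = 0.00111), and Paox from -3.24 to -1.68 (interaction 1.56, adjusted p = 0.00025), with 230.5 ± 23.8 normalized counts in WT and 71.4 ± 9.07 in Klrk1-/- mice on SSD. Gdf15 changed sign, from 1.75 to -1.03 (interaction -2.77, adjusted p = 0.0019), as did Lpin1 (1.22 to -0.71) and Cdkn1a (1.26 to -0.92), although none of the 3 passed on SSD alone. The number of genes with an interaction moved from 37 without Klrk1-/- SSD mouse 3 to 187 without WT SSD mouse 5 as each of the 16 mice was left out in turn.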

How the data were processed

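Livers of 16 mice, 1 library each, were sequenced as single reads. Per the submitters' notes and the methods, the authors ran FastQC, STAR on GRCm39, FeatureCounts with GENCODE M26 annotation and DESeq2. The deposited values are a normalized signal, read counts per gene divided by 1 factor per mouse by the authors. The share of G and C bases per gene is given by the authors and was used only in an alternative. The authors' columns of fold changes and p-values were not used.

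Genes with a mean of at least 10 were tested on log2(normalized count + 1) with limma 3.58.1 in R 4.3.3 with a variance trend and Benjamini-Hochberg adjustment. Genes past an adjusted p of 0.05 and 2-fold were called. NCD and SSD mice were fitted separately, the interaction over 16 mice. Alternatives included edgeR 4.0.16 and DESeq2 1.42.0 on reads recovered from the values. On simulated data limma recovered 97% of genes changed by 1.5 and 100% of those changed by 2 on the log2 scale (100 each, 12755 genes). The simulated spread between mice was assumed, not estimated from these mice, and only genes well above the level for testing were changed. These shares therefore do not give the recovery in the real mice or for low-level genes such as Klrk1. The members and gene lists were chosen with earlier results of these data known. Named genes were the largest called changes, the called genes near Klrk1 and members of the lists, and genes named for contrast were added after their values were seen. Some items are not reported here.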

Additional observations from a re-analysis of the deposited data

Results flagged for a closer look

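In a group of 4 mice, 1 mouse stood far from the other 3 for 12 values, 11 of them from the 278 groups checked for 139 genes. Chance alone gives about 1 in 20 groups, so this number of separated mice is not more than chance gives. In Klrk1-/- mice the highest mouse stood apart for Noct (293 normalized counts), Ypel2 (1402), Sgk1 (299), G6pc (4532), Sco2 (7641) and Raet1d (703). The lowest Klrk1-/- mouse stood apart for Creld2 (688), Marco (40.6) and Col15a1 (94.2). The highest WT mouse stood apart for Gm20075 (5.21) and Raet1e (258). The Klrk1-/- library with the fewest reads on genes (20842235) also stood apart from the other 3.

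The genotype difference was unequal between diets for 12 genes named in the report, by limma's interaction over all 16 mice, given as the log2 change on SSD minus that on NCD. It was negative for Zbtb16 (-2.63), Arrdc3 (-2.01), Nr0b2 (-1.78), Gdf15 (-2.77), Lpin1 (-1.93), Arrdc2 (-1.16), Cdkn1a (-2.19), Klf10 (-1.29) and Ighm (-1.61), all of which were higher in Klrk1-/- mice on NCD. It was positive for Slc25a25 (3.06), Paox (1.56) and Hspa1b (1.22), all lower on NCD. These genes were named for their changes on NCD and the interaction uses the same NCD values, which pulls its sign away from that of the change on NCD. Adjusted p lay between 0.00025 for Paox and 0.0491 for Arrdc2.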

How the results depend on the processing

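With 4 mice a group, counts of called genes moved with single mice. Genes called higher (109) numbered 69 with a pseudocount of 10, 375 with a fold limit of 1.5, 823 with no fold limit and 63 to 142 with 1 mouse left out. Genes called lower (110) numbered 369, 856 and 69 to 129 with the same fold limits and mice left out. Both counts were lowest without Klrk1-/- mouse 3. Called genes that also passed on SSD (47) numbered 31 with no variance trend, 82 with array weights, 80 with DESeq2, 80 and 130 with the 2 fold settings, and 42 to 48 with 1 mouse left out. The interaction (115 genes) gave 67, 474 and 460 with no variance trend, array weights and DESeq2, and 37 to 187 with 1 mouse left out, and list members past the test numbered 93 with no variance trend, 275 with the replicate block and a GC and length correction, and 109 to 215 with 1 mouse left out. The Klrk1 change lay between -2.76 and -2.06 with 1 mouse left out and was -1.24 with a pseudocount of 10. Klrk1 was not tested at a minimum mean of 50. Of 138 other named genes, 44 lost their call in at least 1 of up to 24 alternatives, and the changes of sign were in genes that had not passed, Hcst (-0.41 to 0.00889 with 1 mouse left out, above 0 without Klrk1-/- mouse 2), Hspe1 (-0.18 to 0.034, above 0 without WT mouse 1) and Jchain (-0.030 with array weights). The cause of these shifts was not tested. Deviations of same-numbered WT and Klrk1-/- mice correlated at 0.02, -0.10 and 0.08, and those of differently numbered mice at -0.20 to 0.22. So few values cannot exclude that the numbers pair the mice in some way. The replicate block, fitted on the mice whose number occurs in both genotypes, called 151 genes higher and 127 lower, against 109 and 110 in the main fit. Genes with few reads, Klrk1 among them, were limited by depth.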
